A study of Mus musculus with 12 samples.

Results

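The alpha- and beta-crystallins described here were 8 genes, *Cryaa*, *Cryab*, *Cryba1*, *Cryba2*, *Cryba4*, *Crybb1*, *Crybb2* and *Crybb3*, among the 35976 genes of the count table. They were selected by gene symbol, as a family, with earlier results on these same libraries known, so their levels, fold changes and adjusted p-values are a description of these libraries and give no independent support to any pattern. Retinal RNA of mice was sequenced from the 3′ end of transcripts in 12 libraries, 3 in each of 4 groups. The first group was C57BL/6 (WT) retina from normoxia, and the second was WT retina collected 3 days after oxygen-induced retinopathy (OIR). The remaining groups were retina of mice labelled Caspase1 KO (Casp1 KO) from normoxia and 3 days after OIR. In OIR, pups are kept in high oxygen, which stops vessel growth, and are then returned to room air, where the poorly perfused retina becomes hypoxic. By the methods of the study, C57BL/6 pups were in 75% oxygen from postnatal day 7 to day 12 and were used at day 15; the age and oxygen level of the pups labelled Casp1 KO are not stated, nor is the allele, nor whether WT and KO pups were littermates.

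Crystallins are the main soluble proteins of the lens, packed densely in its elongated fibre cells, where they keep the tissue transparent. The alpha-crystallins *Cryaa* and *Cryab* are small heat shock proteins that bind unfolding proteins and keep them from aggregating. *Cryab* is also made in muscle, glia and other stressed cells. The beta- and gamma-crystallins share a fold built of Greek key motifs and belong to a superfamily of their own; the beta-crystallins assemble into oligomers and fall into acidic (*Cryba*) and basic (*Crybb*) members. Crystallin mRNA is known from retina as well, in neurons and Müller glia after injury, and the lens lies close to the retina and is taken away when the eye is dissected.

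The 8 genes lay at 6 places in the mouse genome (GRCm38, the build of the deposited processing). *Cryaa* is at chr17:31677807-31681733 on the plus strand, *Cryab* at chr9:50751325-50756636 on the plus strand, *Cryba1* at chr11:77718615-77725283 on the minus strand and *Cryba2* at chr1:74889934-74893143 on the minus strand. *Cryba4* (chr5:112246493-112252518, minus) and *Crybb1* (chr5:112255815-112269585, plus) point away from each other with 3297 bases between them. *Crybb2* (chr5:113058258-113070117, minus) and *Crybb3* (chr5:113075839-113081584, minus) follow each other on the same strand, 5722 bases apart. All 8 are annotated as protein coding. The transcripts of the 8 members share no stretch of 31 bases in any of 28 pairs, nor with any gamma-crystallin in 64 pairs, whereas 15 of 28 pairs of gamma-crystallins did.

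RefSeq promoter sequences (GRCm38.p6, from 250 bases before to 50 after the start) were found for 7 of the 8 members, all but *Cryab*. Of these 3 are shown, because the alpha-crystallin *Cryaa* gave the most reads, and *Cryba4* and *Crybb1* face away from a shared upstream region. Capitals mark the Maf motif TGCTGA, the TATA box TATAAA and the AP-1 motif TGANTCA, each searched on both strands, 5′ to 3′. *Cryaa* spans chr17:31677681-31677980 on the plus strand, *Cryba4* chr5:112252469-112252768 on the minus strand and *Crybb1* chr5:112255570-112255869 on the plus strand.
Cryaa: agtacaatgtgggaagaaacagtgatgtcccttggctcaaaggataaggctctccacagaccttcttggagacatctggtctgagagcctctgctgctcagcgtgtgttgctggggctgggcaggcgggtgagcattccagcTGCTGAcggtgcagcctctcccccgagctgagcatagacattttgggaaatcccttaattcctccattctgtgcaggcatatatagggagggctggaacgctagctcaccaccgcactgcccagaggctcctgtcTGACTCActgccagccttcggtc
Cryba4: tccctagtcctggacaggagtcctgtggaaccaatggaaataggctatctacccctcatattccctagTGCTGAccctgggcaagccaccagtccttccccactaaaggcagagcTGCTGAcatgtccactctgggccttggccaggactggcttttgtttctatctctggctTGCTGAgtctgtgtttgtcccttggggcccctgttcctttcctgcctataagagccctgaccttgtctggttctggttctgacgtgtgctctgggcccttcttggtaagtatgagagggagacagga
Crybb1: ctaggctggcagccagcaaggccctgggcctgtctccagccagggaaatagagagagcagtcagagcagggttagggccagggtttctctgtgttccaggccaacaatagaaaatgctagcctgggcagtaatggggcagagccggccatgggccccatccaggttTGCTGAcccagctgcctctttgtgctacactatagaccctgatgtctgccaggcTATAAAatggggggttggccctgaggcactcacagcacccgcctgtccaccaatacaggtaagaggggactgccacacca
The Maf motif, the core bound by the lens factor MAF, was in 6 of the 7 members' promoters and in 19.5% of 32851 promoters of the same length. *Cryba4* holds it at positions -182, -135 and -77 from the start, *Crybb1* at -84 and *Cryaa* at -108. The TATA box letters were in 3 of 7 promoters (13.6% of all), at -30 in *Crybb1*, -23 in *Cryba1* and -3 in *Cryba2*. The AP-1 motif was in 2 of 7 (7.81% of all), in *Cryaa* at position 28 after the start. The heat shock element GAANNTTC, searched in the same way, was in 0 of 7 and in 7.86% of all promoters. No match overlapped another in the 3 sequences shown. These matches describe the letters of each window and not binding.

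Total counts ran from 3391203 to 22815830 per library, the deepest being WT normoxia replicate 2, so that 3 counts, the limit that a count of 0 allows, correspond to 0.134 to 0.871 CPM (counts scaled to library size) by counting error alone. The 8 members had 66 to 3998 reads each in every library, all above that limit. The photoreceptor genes that mark retina summed to 42373 to 51360 CPM. *Casp1* itself had 7 reads over the 6 libraries labelled WT (0 to 3 each) and 126 reads over the 6 labelled Casp1 KO (10 to 45 each), which goes against the labels. Which part of *Casp1* was deleted is not given in the sources used here, so reads in the libraries labelled Casp1 KO may lie outside that part. That bears only on those libraries and not on the few reads under the label WT. Whether the labels were exchanged was not tested. "Casp1 KO" therefore stands for "the libraries labelled Casp1 KO" throughout, and each direction between genotypes is one between labels. WT OIR replicate 3 differed from replicates 1 and 2 of its group: the chi-square per degree of freedom over genes was 15.2 and 14.2 against them and 5.41 between those, and this library was the lowest of its group for all 8 members. Counts and sums that rest on WT OIR are given with and without it.

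The crystallins were higher in Casp1 KO OIR than in the other groups. Their summed level was 569, 542 and 600.1 CPM in WT normoxia, 642, 566 and 354 in WT OIR, 517, 505 and 517 in Casp1 KO normoxia and 994, 1001 and 927 in Casp1 KO OIR. The Casp1 KO OIR libraries lay above all others, and WT OIR replicate 3 below all others. The ratio of mean sums was 1.90 for Casp1 KO OIR to Casp1 KO normoxia and 0.912 for WT OIR to WT normoxia, or 1.06 without WT OIR replicate 3. As a share of all reads, the members made up 0.0344% to 0.0998% of a library. In bulk tissue, fewer cells of a type and less RNA per cell cannot be told apart.

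**Figure D1:**
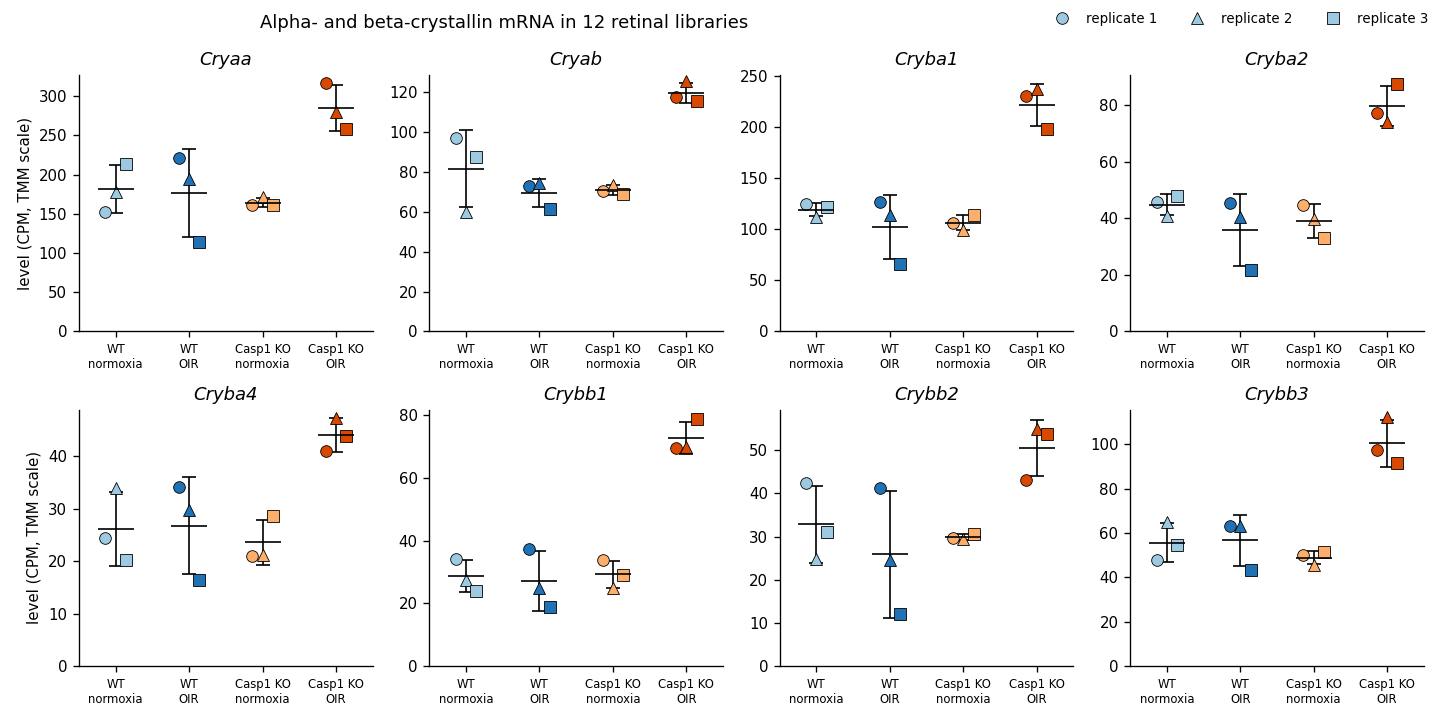
Level of each crystallin gene (y axis, CPM on the TMM scale, from 0) in the 3 libraries of each group (x axis; circle, triangle and square are replicates 1, 2 and 3; line and bars are mean ± SD). In all 8 panels the 3 Casp1 KO OIR libraries lie above the WT OIR and Casp1 KO normoxia libraries, and WT OIR replicate 3 is the lowest of its group.

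*Cryaa*, the alpha-crystallin that is largely restricted to lens, gave the most reads of the 8 in every library. Its level was 153, 178 and 213 CPM in WT normoxia, 221, 195 and 114 in WT OIR, 161, 171 and 161 in Casp1 KO normoxia and 317, 280.1 and 258 in Casp1 KO OIR. The Casp1 KO OIR libraries were the highest and did not overlap any other group, and the WT OIR libraries spanned those of WT normoxia. On the log2 scale it was higher by 0.81 (SE 0.0932, 95% interval 0.63 to 0.99, adjusted p = 2.44e-15, edgeR) in Casp1 KO OIR than in Casp1 KO normoxia. Between WT OIR and WT normoxia the difference was -0.052 (interval -0.32 to 0.21).

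*Cryab*, the more widely expressed alpha-crystallin chaperone, was at 97.2, 59.9 and 87.6 CPM in WT normoxia and at 72.7, 74.4 and 61.4 CPM in WT OIR. It was at 70.4, 73.5 and 69.1 CPM in Casp1 KO normoxia and at 118, 125.5 and 116 CPM in Casp1 KO OIR. The latter group was above all others, and the WT normoxia libraries spread the most. The log2 difference was 0.77 (SE 0.124, interval 0.53 to 1.01) in the Casp1 KO pair and -0.23 (SE 0.160, interval -0.55 to 0.082) in the WT pair. *Cryab* overlaps *Hspb2*, a small heat shock gene on the other strand that had 46 reads over all libraries, and whether the counting used strand is not given in the sources used here. *Cryaa* overlaps the antisense gene *AC090881.2*, and *Crybb2* the processed pseudogene *Gm43247*. Both lie on the other strand, and neither is in the count table.

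Of the acidic beta-crystallins, *Cryba1* gave the most reads. It was at 125, 112 and 122 CPM in WT normoxia, 127, 114 and 66.3 in WT OIR, 106, 99.4 and 114 in Casp1 KO normoxia and 230.3, 237 and 199 in Casp1 KO OIR. Its fold change in the Casp1 KO pair was 2.10 (log2 1.07, SE 0.103, adjusted p = 2.42e-22, edgeR), and the log2 difference in the WT pair was -0.24 (interval -0.53 to 0.053). *Cryba1* lies within the span of *Nufip2*, a gene on the other strand with 24389 reads, whose own log2 difference in the Casp1 KO pair was -0.046 (SE 0.0831). *Cryba2* was at 45.8, 40.6 and 47.8 CPM in WT normoxia, 45.6, 40.3 and 21.6 in WT OIR, 44.9, 39.8 and 32.8 in Casp1 KO normoxia and 77.4, 74.0 and 87.4 in Casp1 KO OIR. Only the Casp1 KO OIR libraries stood clear of the others, by 1.03 on the log2 scale (SE 0.152) over Casp1 KO normoxia. *Cryba4* was at 24.3, 34.0 and 20.2 CPM in WT normoxia, 34.0, 29.8 and 16.4 in WT OIR, 20.97, 21.2 and 28.5 in Casp1 KO normoxia and 40.9, 47.3 and 43.8 in Casp1 KO OIR. It had the fewest reads of the 8 when averaged over the libraries, the groups outside Casp1 KO OIR overlapped, and the log2 difference of 0.92 in the Casp1 KO pair had an SE of 0.197.

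Among the basic beta-crystallins, *Crybb1* gave the largest fold change of the 8 members in the Casp1 KO pair. It was at 34.3, 27.6 and 24.1 CPM in WT normoxia, 37.5, 25.0 and 18.9 in WT OIR, 33.7, 25.0 and 29.2 in Casp1 KO normoxia and 69.6, 69.9 and 78.8 in Casp1 KO OIR. The fold was 2.49 (log2 1.31, SE 0.164, interval 0.99 to 1.63), and the WT difference was -0.10 (interval -0.54 to 0.34). Its neighbour *Cryba4*, across the shared upstream region, differed by 0.92 with an interval of 0.53 to 1.30 that overlaps that of *Crybb1*. *Crybb2* was at 42.5, 24.8 and 31.1 CPM in WT normoxia, 41.1, 24.5 and 11.99 in WT OIR, 29.7, 29.3 and 30.7 in Casp1 KO normoxia and 43.1, 55.0 and 53.7 in Casp1 KO OIR. Here the lowest Casp1 KO OIR library was close to the highest WT library, and the log2 difference in the Casp1 KO pair was 0.77 (SE 0.180, adjusted p = 0.0011, edgeR). *Crybb3* was at 47.6, 65.0 and 54.4 CPM in WT normoxia, 63.2, 63.3 and 43.4 in WT OIR, 49.96, 45.6 and 51.2 in Casp1 KO normoxia and 97.4, 112 and 91.3 in Casp1 KO OIR. It was higher by 1.05 (SE 0.138) in the Casp1 KO pair and differed by 0.004 (interval -0.34 to 0.35) in the WT pair.

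The sample labels pose the question whether these genes differed with OIR and whether this depended on the label Casp1 KO. It was followed in 4 comparisons of groups and in their interaction. WT OIR against WT normoxia called 0 of 8 crystallins by edgeR, 0 at an unadjusted p under 0.05 and 0 by DESeq2, with log2 differences from -0.36 to 0.004 (median -0.17) against a median of 0.007 over all genes. In that comparison 3.88% of 22853 genes were called in either direction, and 16.7% of genes had groups that did not overlap, as had 0 of the 8 members. The 95% interval of the WT difference was narrowest for *Cryaa* (-0.32 to 0.21) and wider for *Crybb2* (-0.79 to 0.081) and *Cryba4* (-0.46 to 0.44), which have fewer reads. Without WT OIR replicate 3 the count called stayed 0, and without WT OIR replicate 1 *Crybb2* alone was called lower, at -0.85 with adjusted p = 0.0363 (edgeR).

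In Casp1 KO OIR against Casp1 KO normoxia, 8 of 8 crystallins rose, where 2.61% of 22387 genes were called higher. The log2 differences ran from 0.77 (*Cryab* and *Crybb2*) to 1.31 (*Crybb1*), with a median of 0.97 against 0.005 over all genes. In each of the 8 members all Casp1 KO OIR libraries lay above all Casp1 KO normoxia libraries, as in 8.56% of genes. Since earlier results of this contrast were known when the genes were selected, nothing is read from these counts.

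Casp1 KO normoxia against WT normoxia called 0 of 8 by edgeR, 0 at an unadjusted p under 0.05 and 0 by DESeq2, where 1.04% of 22480 genes were called in either direction and 12.4% did not overlap. The members differed by -0.19 (*Crybb3*) to 0.044 (*Crybb1*) on the log2 scale, with a median of -0.17 against -0.009 over all genes, and the groups overlapped for every member. In Casp1 KO OIR against WT OIR, 7 of 8 were higher by the test, where 0.263% of 22774 genes were called higher. The log2 differences ran from 0.69 (*Cryaa*) to 1.43 (*Crybb1*), with a median of 0.91 against -0.028 over all genes. The member that was not called was *Cryba4*, at 0.73 (SE 0.212, adjusted p = 0.0772, edgeR). In each of the 8, *Cryba4* included, all Casp1 KO OIR libraries lay above all WT OIR libraries, as in 5.41% of genes. Without WT OIR replicate 3, the same 7 of 8 were still called higher, with log2 differences from 0.47 (*Cryaa*) to 1.24 (*Crybb1*). The ratio of summed levels went from 1.87 to 1.61. The fit without this library called more genes in either direction than the full fit, so 0.263% is not its share. When genes with low counts were filtered out, only 4 of the 8 were called in this comparison.

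**Figure D2:**
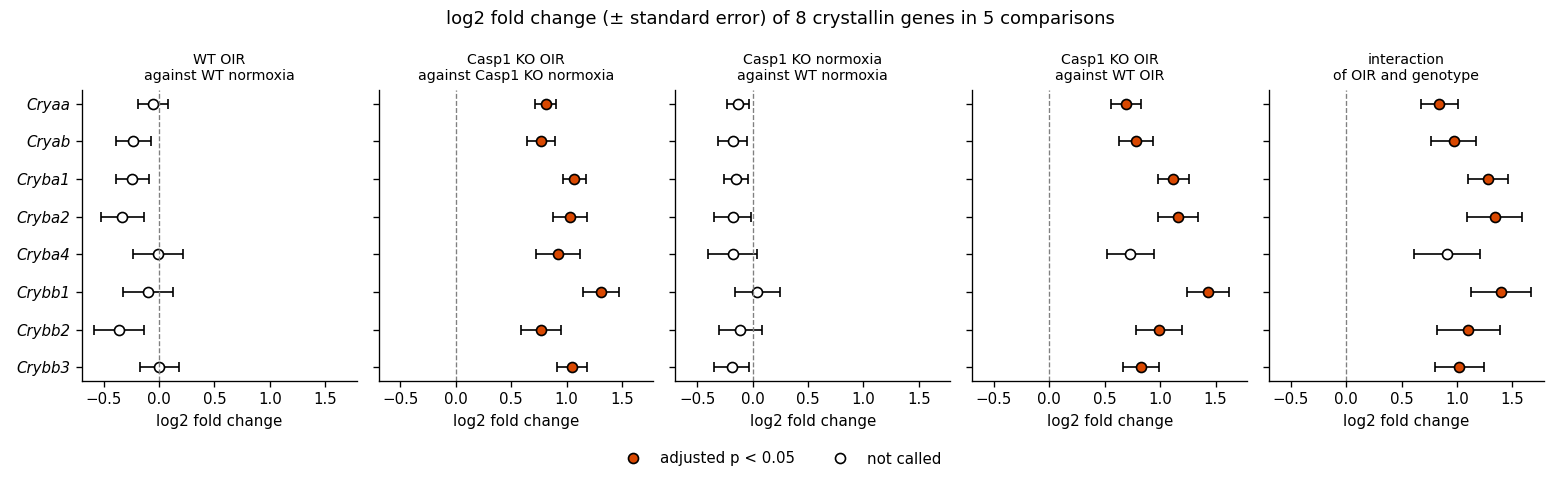
log2 fold change (x axis) of the 8 crystallin genes (rows) in 5 comparisons (panels), as points with ± 1 standard error; filled points have an adjusted p under 0.05. All 8 points are filled for Casp1 KO OIR against Casp1 KO normoxia, none for the WT OIR and the normoxia comparisons, and all but *Cryba4* in the remaining panels.

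The effect of OIR was larger in Casp1 KO than in WT for 7 of 8 members by the interaction test on all 12 libraries, where 0.604% of 24484 genes were called higher. The difference between the effects was largest for *Crybb1* (1.40, SE 0.271), *Cryba2* (1.34, SE 0.247) and *Cryba1* (1.28, SE 0.180), and was 0.84 (SE 0.166) for *Cryaa*. The median over the 8 was 1.06 against -0.015 over all genes. *Cryba4* differed by 0.91 (SE 0.301, adjusted p = 0.133, edgeR). *Crybb2* (1.10, adjusted p = 0.0155, edgeR) was not called without WT OIR replicate 3, at 0.75 with adjusted p = 0.164 (edgeR). This left 6 members called. Over all genes the fit without this library called more in either direction than the full fit, so 0.604% is not its share. The interaction, the KO pair and the comparison within OIR share the Casp1 KO OIR libraries and are not separate evidence.

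The crystallin reads of every library were led by *Cryaa*, with *Cryba1* next. *Cryaa* gave 26.8% to 35.5% of the members' reads in a library, *Cryba1* 18.8% to 23.7%, *Cryab* 11.1% to 17.4% and *Crybb3* 8.37% to 12.3%. The remaining members gave between 3.37% (*Cryba4*) and 9.43% (*Cryba2*). Because each QuantSeq read stands for the 3′ end of 1 transcript, these shares were not divided by length. The beta-crystallin sum was 2.05 times as high, and the alpha-crystallin sum 1.72 times as high, in Casp1 KO OIR as in Casp1 KO normoxia. *Cryab* relative to the summed beta-crystallins was 0.209 to 0.211 in Casp1 KO OIR and 0.241 to 0.282 in Casp1 KO normoxia. Those ranges did not overlap, and both lay inside the 0.197 to 0.344 of the WT libraries.

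**Figure D3:**
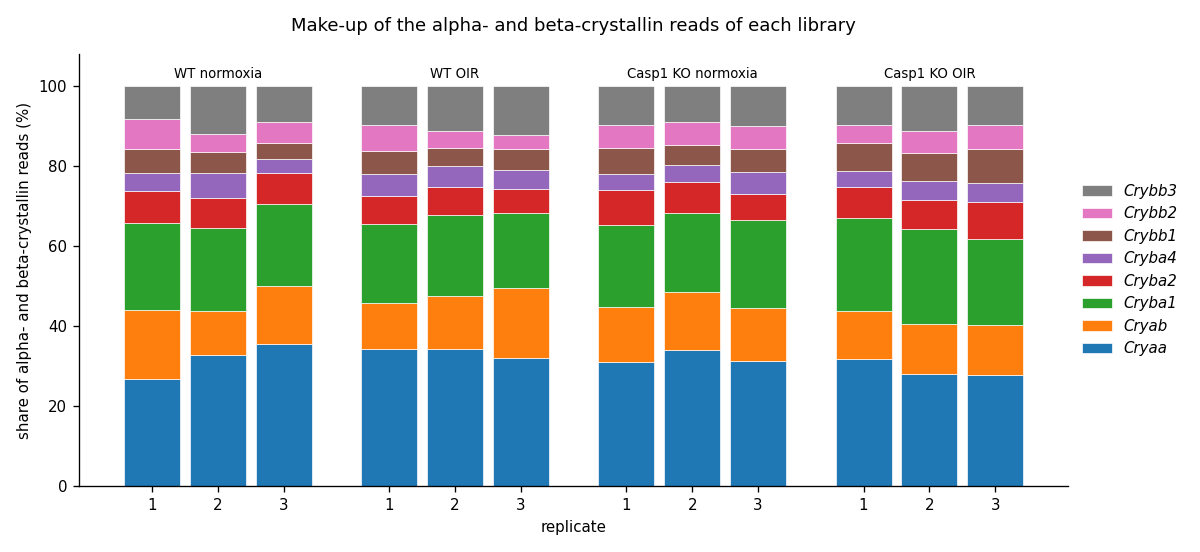
Share of the alpha- and beta-crystallin reads (y axis, percent) given by each gene (colours) in each library (bars, by group and replicate). *Cryaa* holds 26.8% to 35.5% and *Cryba1* 18.8% to 23.7% in every library.

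Across the 12 libraries the members' log2 levels moved together. Pearson's r over the 28 pairs ran from 0.627 to 0.947 with a median of 0.863, which includes the difference between the groups. After each library's deviation from its own group mean was taken, r ran from -0.165 to 0.853 with a median of 0.614. The lowest values were those of *Cryab* with *Crybb3* (-0.165) and *Cryba4* (-0.136), and *Cryab* reached at most 0.6225, with *Crybb2*. The points share each library's depth and scaling and, in WT OIR, replicate 3, so these values are a description. Of 14891 other genes with a mean of at least 1 CPM, those most like the summed crystallins over the 12 libraries were *Cox4i2* (r = 0.936), a subunit of cytochrome c oxidase, *Psmb8* (0.924), a subunit of the immunoproteasome, *Crygd* (0.915), *Crygb* (0.909) and *Crygc* (0.903), which are gamma-crystallins of the lens, *Spon1* (0.903), an extracellular matrix protein, *2810029C07Rik* (0.901) and *Smarcd2* (0.889), a subunit of a chromatin remodelling complex. *Cox4i2* was at 36.1, 31.3 and 39.1 CPM in WT normoxia, 49.96, 38.3 and 21.99 in WT OIR, 25.5, 25.6 and 28.5 in Casp1 KO normoxia and 56.5, 60.0 and 62.1 in Casp1 KO OIR. It too was lowest of its group in WT OIR replicate 3. Of 15 other genes within 50 kb of a member with reads in the table, 0 were called by edgeR in 75 fits over the 5 comparisons, 7 of which had an unadjusted p under 0.05.

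The gamma-crystallins, the other large crystallin group of lens fibres, stood beside the members. Their sum was 482, 567 and 496 CPM in WT normoxia, 760.1, 623 and 320 in WT OIR, 672, 631 and 684 in Casp1 KO normoxia and 1238, 1274 and 1134 in Casp1 KO OIR. It was 1.83 times as high in Casp1 KO OIR as in Casp1 KO normoxia, against 1.90 for the alpha- and beta-crystallins. In that pair 7 of 8 rose, led by *Crygb* (0.92), *Crygd* (0.95) and *Crygc* (0.82), while *Crygn* differed by 0.47 (SE 0.475). In WT OIR 0 of 8 were called, within Casp1 KO OIR against WT OIR 7 were higher, and by the interaction 3 were (*Crygb* 0.84, *Crygs* 0.96 and *Crygd* 0.71). Without WT OIR replicate 3, *Cryga* (0.75) and *Crygd* (0.57) were called higher in WT OIR, 6 were higher between the OIR groups (all of the 7 but *Crygs*), and by the interaction *Crygb* was (0.62). The ratio of gamma-crystallin sums went from 1.10 to 1.34 in the WT pair and from 2.14 to 1.76 between the OIR groups when it was left out. Between the normoxia groups *Crygf* (0.87), *Crygc* (0.49) and *Cryge* (0.55) were higher in Casp1 KO, where 0 of the 8 alpha- and beta-crystallins were called. The ratio of the alpha- and beta-crystallin sum to the gamma-crystallin sum was 1.18, 0.955 and 1.21 in WT normoxia and 0.769, 0.800 and 0.756 in Casp1 KO normoxia, which did not overlap. It was 0.844, 0.909 and 1.11 in WT OIR and 0.803, 0.786 and 0.818 in Casp1 KO OIR. Some gamma-crystallins share sequence (up to 47.2% of 31-base stretches, in *Cryge* and *Crygf*), so how reads were split among those is uncertain.

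The other markers of lens were present at low level. The 12 lens fibre genes, which encode membrane, gap junction and beaded filament proteins, summed to 29.6 to 36.8 CPM in WT normoxia, 38.0, 34.1 and 21.1 in WT OIR, 23.2 to 35.4 in Casp1 KO normoxia and 58.7 to 74.7 in Casp1 KO OIR, a ratio of 2.12 in the Casp1 KO pair. Of 11 measured, 2 rose there, *Bfsp2* (1.54), a beaded filament protein, and *Lenep* (1.03); of the 9 that were not called 7 were above 0 and 2 below, and the median of the 11 was 1.10. *Bfsp2* was also higher in Casp1 KO OIR than in WT OIR (1.62), and 0 lens fibre genes were called in WT OIR, in normoxia or by the interaction. When WT OIR replicate 3 was left out, *Bfsp2* was higher between the OIR groups (1.72) and by the interaction (1.94), and the ratio of lens fibre sums between the OIR groups went from 2.08 to 1.79. *Mip*, the main water channel of lens fibres, was at 0 in 10 of 12 libraries and at 0.872 CPM at most. The sum of lens fibre genes relative to the beta-crystallins was 0.0809 to 0.136, with overlapping groups. Of the lens transcription factors, *Foxe3* had no reads and *Pitx3* was above 0 in a lone library. The other lens factors, which retina also expresses, rose for *Prox1* (0.50) and *Sox2* (0.56) in the Casp1 KO pair, fell for *Six3* (-0.56) and *Pax6* (-0.64) in WT OIR, and were lower for *Prox1* (-0.71) and *Sox2* (-0.54) in Casp1 KO normoxia than in WT normoxia; *Prox1* also differed by the interaction (0.72), and 0 were called between the OIR groups. Those calls of the WT pair and the interaction remained without WT OIR replicate 3, which added *Six3* by the interaction (0.37). The part of lens material in the crystallin levels was not tested.

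**Figure D4:**
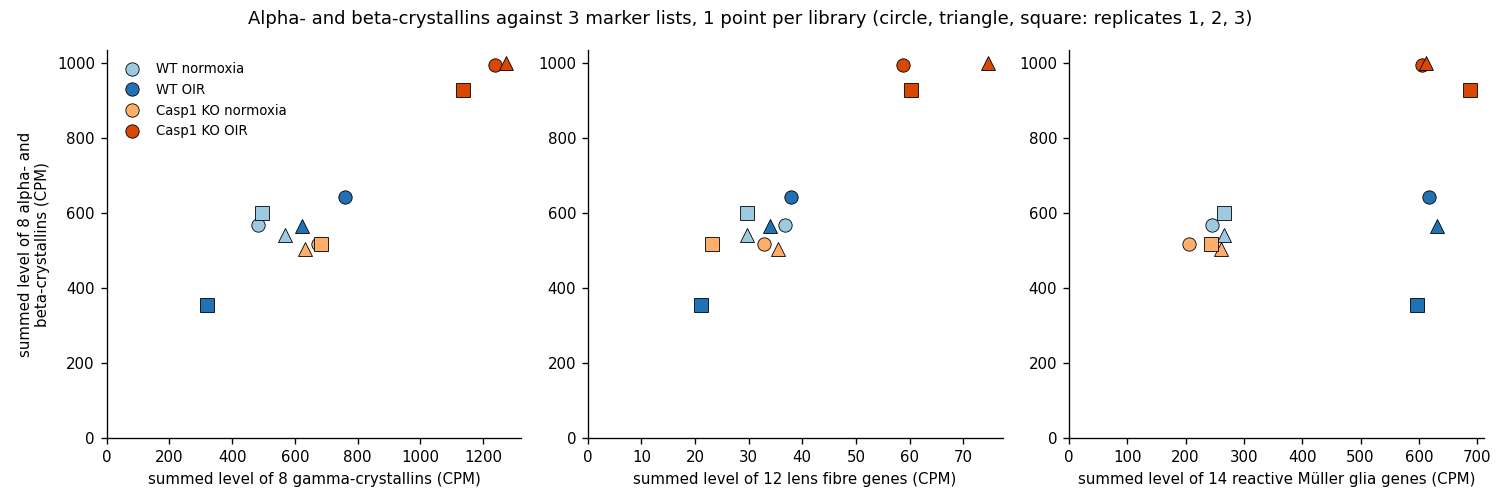
Summed level of the 8 alpha- and beta-crystallins (y axis, CPM) against the summed gamma-crystallins, lens fibre genes and reactive Müller glia genes (x axes, CPM), with 1 point per library coloured by group. The Casp1 KO OIR points are at the top right of the gamma-crystallin and lens fibre panels. In the reactive glia panel they are at the top, and their 605 to 687 CPM overlap WT OIR on the x axis. WT OIR points reach 597 to 631 CPM for the reactive glia genes while their crystallin sums stay between 354 and 642 CPM.

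Genes of stress and of other cells of the eye were followed beside the crystallins. The 14 reactive Müller glia genes, induced when the retina is injured, summed to 245 to 267 CPM in WT normoxia and 597 to 631 in WT OIR, and to 206 to 261 in Casp1 KO normoxia and 605 to 687 in Casp1 KO OIR. In WT OIR 9 of 14 rose, led by *S100a6* (2.01), *Gfap* (1.62) and *Cebpd* (2.26), and in the Casp1 KO pair 8 of 14 rose, led by *S100a6* (2.56), *Gfap* (2.31) and *Vim* (1.32), with 0 called between the normoxia groups, between the OIR groups or by the interaction. When WT OIR replicate 3 was left out, those 9 and *Osmr* (1.68) were called in WT OIR, and 0 between the OIR groups or by the interaction. Of 13 genes listed under the heat shock response, chaperones and the factor HSF1, *Hspa1a* (0.63) rose in the Casp1 KO pair. *Hspa5*, a chaperone not specific to that response, was lower in Casp1 KO normoxia than in WT normoxia (-0.41). In this list 0 were called in WT OIR, between the OIR groups or by the interaction. Without WT OIR replicate 3, *Hsp90aa1* and *Hsp90ab1* were called, at 0.21 and -0.30 in WT OIR, -0.36 and 0.28 between the OIR groups and -0.41 and 0.35 by the interaction. Of the small heat shock proteins other than the alpha-crystallins, 6 of 8 were measured and *Hspb6* (0.38) rose in the Casp1 KO pair, with 0 called elsewhere, also without WT OIR replicate 3. Of the 8 other genes with crystallin in their name, among them enzymes and more distant members of the beta/gamma superfamily such as *Crybg3*, 5 were measured and *Crym*, a thyroid hormone binding protein, rose in WT OIR (0.66) and in the Casp1 KO pair (0.82), with 0 called in the other comparisons; without WT OIR replicate 3 the WT value was 0.71 and again 0 were called between the OIR groups or by the interaction.

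Among general Müller glia genes, *Glul* (-0.70), *Rlbp1* (-0.73) and *Aqp4* (-0.87) fell in WT OIR, and 5 of 8 rose in the Casp1 KO pair, led by *Apoe* (0.92), *Glul* (0.41) and *Dkk3* (0.44). By the interaction 4 were called, led by *Glul* (1.09), *Rlbp1* (0.99) and *Apoe* (0.78), 5 were lower in Casp1 KO normoxia than in WT normoxia, led by *Glul* (-0.47), *Rlbp1* (-0.57) and *Apoe* (-0.46), and *Glul* was higher between the OIR groups (0.61). These calls remained without WT OIR replicate 3 while *Dkk3* (-0.32) was added in WT OIR and *Rlbp1* (0.36), *Apoe* (0.36) and *Dkk3* (0.39) between the OIR groups. The 8 genes of the retinal pigment epithelium, the layer behind the photoreceptors, summed to 678 to 734 CPM in WT normoxia, 758 to 822 in WT OIR, 752 to 790 in Casp1 KO normoxia and 1126 to 1203 in Casp1 KO OIR. In the Casp1 KO pair 4 rose, led by *Rpe65* (0.97), *Ttr* (0.58) and *Rgr* (0.60). In WT OIR *Pmel* rose (0.80) and *Lrat* fell (-0.84), *Pmel* was higher in Casp1 KO normoxia than in WT normoxia (0.69), *Rpe65* (0.74), *Lrat* (1.09) and *Ttr* (0.52) were higher between the OIR groups, and *Rpe65* (0.86) and *Lrat* (1.22) by the interaction. Without WT OIR replicate 3, *Pmel* was not called in WT OIR (0.39) and *Ttr* was (0.32), *Rgr* (0.63) and *Pmel* (0.90) were added between the OIR groups and *Rgr* (0.77) by the interaction. The 6 cornea genes summed to 0 to 4.38 CPM with 0 called, with or without WT OIR replicate 3. Of 4 ciliary body and iris genes, *Optc* (1.61) and *Col18a1* (1.36) rose in WT OIR and *Optc* (0.76) in the Casp1 KO pair; *Col18a1* was lower in Casp1 KO OIR than in WT OIR (-0.72) and by the interaction (-1.13), and 0 were called in normoxia; these calls remained without WT OIR replicate 3. Of 10 photoreceptor genes, *Arr3* fell in WT OIR (-0.62); in the Casp1 KO pair genes that passed the test included *Opn1sw*, which rose (0.49), while *Arr3* (-0.59) and *Sag* (-0.26) fell, with 0 called in the other comparisons. Leaving out WT OIR replicate 3, 4 photoreceptor genes were lower in WT OIR, 4 were higher between the OIR groups and 3 by the interaction. The part of these tissues and cell types in the crystallin levels was not tested.

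**Figure D5:**
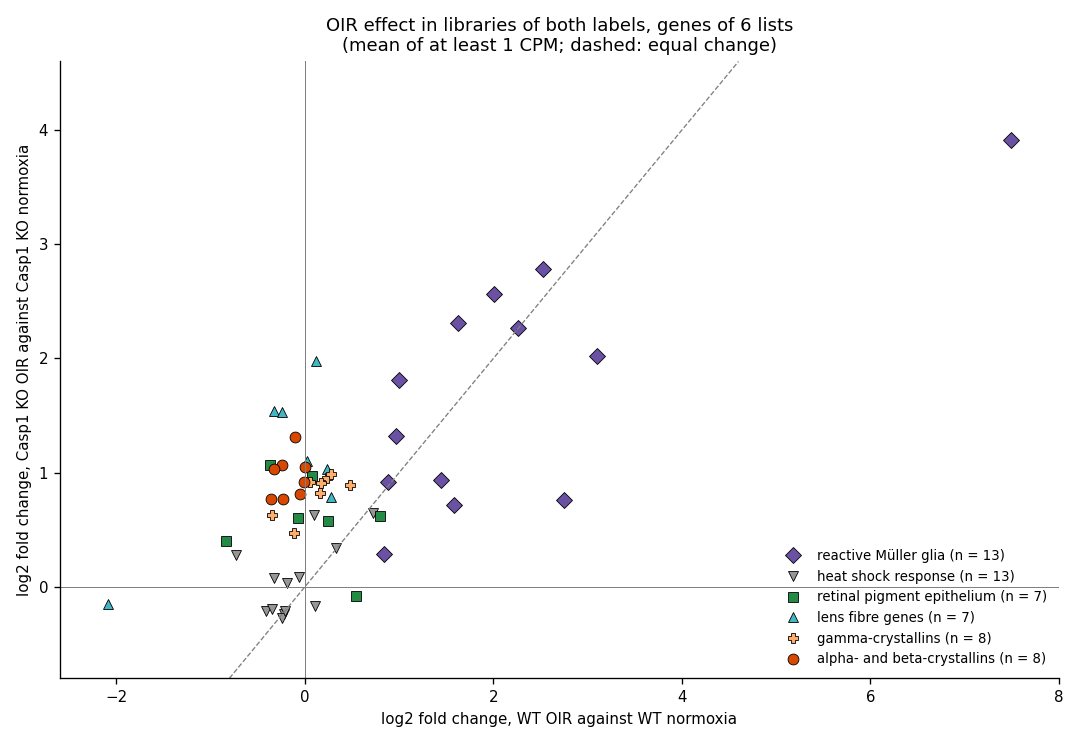
log2 fold change after OIR in WT (x axis) and in Casp1 KO (y axis) for genes of 6 lists with a mean of at least 1 CPM, 1 point per gene; the dashed line is equal change. The 8 alpha- and beta-crystallins lie between -0.36 and 0.004 on the x axis and between 0.77 and 1.31 on the y axis, the gamma-crystallins between -0.35 and 0.48 and between 0.47 and 0.99, while the reactive Müller glia genes are above 0 on both axes.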

How the data were processed

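The authors made QuantSeq 3′ FWD libraries from retinal RNA, and the deposited table holds counts of reads per gene symbol for 12 samples, without normalization. Per the submitters' processing notes, STAR 2.7.5a, HTSeq 0.6.1, edgeR and the build mm10 were used; the annotation, strand setting and treatment of reads with several matches are not given in the sources used here. Counting without strand would mix reads of overlapping genes. Samples were grouped by their labels, and nothing states whether replicates were separate animals, so p-values measure the spread between these samples, which may be technical.

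Counts were fitted in R 4.3.3 with edgeR 4.0.16 (TMM, glmQLFit and glmQLFTest, the older quasi-likelihood method), on genes with at least 1 read in the libraries fitted, with Benjamini-Hochberg adjustment over all of them and a threshold of 0.05. Pairs of groups were fitted to their own 6 libraries and the interaction to all 12. SEs came from the fold change and the F statistic, and intervals are 1.96 SE to each side. Levels are CPM on the TMM scale of all 12 libraries. The text names the 8 members, up to 3 called genes each way per list by smallest p, the 8 genes most correlated with the summed members (log2 of CPM plus 1), and neighbours within 50 kb. A marker of the lists is not reported here by name. The members and lists were chosen with earlier results of these data known. The fit was tested on simulated data. Alternatives were DESeq2 1.42.0, other scaling, a stricter count filter, a likelihood ratio test, a larger prior count, 1 fit to all libraries, a replicate block, leaving out each library and, chosen after seeing the data, the newer quasi-likelihood method and sums and marker lists without WT OIR replicate 3.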

Additional observations from a re-analysis of the deposited data

Results flagged for a closer look

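The interaction test on all 12 libraries (edgeR, adjusted over all genes) called 7 of the 8 crystallins. Their OIR effect was not the same under the label Casp1 KO as under the label WT. Over all genes, 0.604% of 24484 were called higher. The difference between the effects, Casp1 KO minus WT on the log2 scale, was 0.84 for *Cryaa*, 0.97 for *Cryab*, 1.28 for *Cryba1*, 1.34 for *Cryba2*, 1.40 for *Crybb1*, 1.10 for *Crybb2* and 1.02 for *Crybb3*. *Cryba1* had the smallest adjusted p of the 7 (2.46e-09) and *Crybb2* the largest (0.0155). These genes were selected with earlier results known. Without WT OIR replicate 3, the lowest library of its group for each of them, the values ran from 0.60 (*Cryaa*) to 1.19 (*Crybb1*). In that fit *Crybb2* (0.75, adjusted p = 0.164, edgeR) was not called, and more genes were called over all than in the full fit. With the stricter count filter neither *Cryaa* nor *Crybb2* was called, and with DESeq2 *Crybb2* was not.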

How the results depend on the processing

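In Casp1 KO OIR against Casp1 KO normoxia each of 120 alternative values of the 8 crystallins kept its direction and its call; in the same count 115 of 120 did so in Casp1 KO OIR against WT OIR and 150 of 160 for the interaction. The stricter count filter (filterByExpr) called 586 genes in WT OIR against WT normoxia, 4 crystallins and 16 genes in Casp1 KO OIR against WT OIR (*Cryaa* adjusted p = 0.22, *Crybb2* 0.275, *Crybb3* 0.0672, edgeR) and 139 genes for the interaction (*Cryaa* 0.0627, *Crybb2* 0.176). DESeq2 called 444 genes between the normoxia groups and 82 between the OIR groups, and *Crybb2* was not called between the OIR groups (0.0962) or for the interaction (0.213). The likelihood ratio test called 148, 54 and 181 genes in the same order (normoxia, OIR, interaction), and 1 fit to all 12 libraries called 642 genes in the Casp1 KO pair, 109 between the normoxia groups and 255 between the OIR groups. Leaving out each library gave 545 to 1130 genes and 0 to 1 crystallins in the WT pair, 128 to 199 genes between the normoxia groups, 47 to 815 genes and 7 to 8 crystallins between the OIR groups, and 174 to 597 genes and 6 to 8 crystallins for the interaction; *Crybb2* lost the interaction call in 5 of these fits (without WT normoxia replicate 1, WT OIR replicate 2 or 3, or Casp1 KO OIR replicate 2 or 3). The highest counts in the WT pair, between the OIR groups and for the interaction came without WT OIR replicate 3; the other counts over 1.5 times away from the full fits came without any 1 WT normoxia library in the WT pair (545 to 581), Casp1 KO normoxia replicate 2 or 3 (143 and 128) between the normoxia groups, WT OIR replicate 2 (47) or any Casp1 KO OIR library (59 to 72) between the OIR groups, and WT OIR replicate 2 (174) or Casp1 KO normoxia replicate 1 (184) for the interaction. Values near 0 changed sign. In the WT pair *Cryba4* was 0.0062 with DESeq2 size factors, 0.026 with library size alone, 0.0024 with filterByExpr and 0.017 with DESeq2, *Crybb3* was -0.035 with the newer quasi-likelihood method, and with libraries left out *Cryba4* ran from -0.22 to 0.25, *Crybb3* from -0.096 to 0.16, *Crybb1* from -0.40 to 0.11, *Cryaa* from -0.25 to 0.19 and *Cryba1* from -0.42 to 0.0019. Between the normoxia groups *Crybb2* was 0.012 with the newer method, and with libraries left out *Crybb2* ran from -0.30 to 0.12, *Cryba4* from -0.33 to 0.081 and *Crybb1* from -0.071 to 0.18. The causes were not tested. Same-numbered libraries did not deviate together (r from -0.061 to 0.087). What the replicate numbers stand for is not given in the labels, and these values cannot exclude a pairing. A replicate block left 0, 8, 0, 7 and 7 crystallins called (WT pair, Casp1 KO pair, normoxia, OIR, interaction) and 794, 1028, 190, 128 and 290 genes. With 3 libraries a group, an exact permutation test of a single value could not go below p = 0.1.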
